A study of Mus musculus with 21 samples.

Results

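The 8 genes described here encode the receptor chains for IL-4, IL-33, IL-34 and IL-35, the interleukins named in the titles of the eosinophil libraries treated with type 2 (T2) cytokines. They were chosen by symbol and not picked by a measured value, although earlier results of these data were known. Il4ra, Il2rg and Il13ra1 stand for IL-4, Il1rl1 and Il1rap for IL-33, Csf1r for IL-34, and Il12rb2 and Il6st for IL-35. They are 8 of the 22274 genes tabulated for T2 and resting eosinophils, 8 of the 15945 tabulated for eosinophils and granulocyte-macrophage progenitors (GMPs) of bone marrow, and 8 of the 16645 tabulated for cultured eosinophils. All 8 passed the filter on low counts in each of the 3 tables.

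Poly(A) RNA of 21 libraries of wild-type mouse cells was sequenced. The groups were 3 libraries of bone marrow eosinophils set against 3 of GMPs, the marrow cells that give rise to granulocytes, and 3 libraries of T2 eosinophils set against 3 of untreated, resting eosinophils. Bone marrow-derived eosinophils (BMDEs), grown in culture, made up 4 libraries given ferric ammonium citrate (FAC), which supplies iron, at 10 µM, 3 given deferoxamine (DFO), which chelates it, at 5 µM, and 2 untreated controls. Per the labels, BMDEs were grown with SCF and FLT3L at 100 ng/mL each, then from day 4 with IL-5 at 10 ng/mL and with FAC or DFO where given, and RNA was taken on day 7. The titles of the T2 libraries name IL-4 and GM-CSF in each, with IL-33 in library 1, IL-34 in library 2 and IL-35 in library 3. Whether these are 3 different treatments cannot be read from the labels, and the libraries were kept as 1 group. Strain, sex, age and the source of the resting eosinophils are not given in the sources used here.

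IL-4 signals through Il4ra, its binding chain, paired either with the common gamma chain Il2rg, in the type I receptor of blood cells, or with Il13ra1, in the type II receptor that IL-13 also uses. IL-33 binds ST2, the product of Il1rl1, which then recruits the accessory chain Il1rap to signal through Myd88, and eosinophils, mast cells and basophils are known to carry ST2. IL-34 shares the receptor tyrosine kinase Csf1r with Csf1, a pathway best known in monocytes and macrophages, and IL-35 was described in T cells to signal through Il12rb2 with Il6st, the gp130 chain that the IL-6 family also uses. Counts per gene do not separate the membrane and soluble forms that Il1rl1, Il4ra and Il6st are known to have.

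The libraries held 16073573 to 28992674 counts, so that 3 counts in a library corresponded to 0.0902 to 0.184 CPM, counts scaled to a common library total. All 10 eosinophil markers, such as Epx, Prg2, Ccr3 and Siglecf, were over 1 CPM in every eosinophil group, and 5 of them in GMPs. This level does not set eosinophils apart, since all 10 neutrophil markers also passed it in bone marrow and resting eosinophils and in BMDEs. In bone marrow eosinophil libraries 1, 2 and 3 the eosinophil markers took 2.04%, 1.84% and 2.54% of the counts. The neutrophil markers took more, at 3.29%, 6.52% and 13.6%, against 0.0076% to 0.0110% in GMPs. Library 3 stood apart, with a median difference from libraries 1 and 2 of 0.858 and 0.640 on the log2 scale. Among BMDEs, FAC library 6 differed from the other FAC libraries by medians of 0.290 to 0.378, whereas the others differed among themselves by 0.0701 to 0.120. In resting eosinophils the eosinophil markers took 0.811% to 0.845% of the counts and the neutrophil markers 0.212% to 0.236%. In control BMDEs the eosinophil markers took 4.35% to 4.41% and the neutrophil markers 0.923% to 1.09%. In bulk RNA, fewer cells of a type and less RNA per cell cannot be told apart.

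On GRCm38 (GENCODE M21), Il4ra (Entrez 16190) spans chromosome 7 from 125552120 to 125579474 on the plus strand, and Il2rg (16186) chromosome X from 101264378 to 101268255 on the minus strand. Il13ra1 (16164) also lies on chromosome X, from 36112110 to 36171259. Il1rl1 (17082) spans chromosome 1 from 40429570 to 40465415, Il1rap (16180) chromosome 16 from 26581704 to 26730117, Il12rb2 (16162) chromosome 6 from 67291318 to 67376188 on the minus strand, and Il6st (16195) chromosome 13 from 112464070 to 112510086.

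The 250 bases before the RefSeq start sites are shown for Il4ra, Il2rg and Il12rb2, the members with the largest T2 differences. They are also shown for Il1rl1, the most abundant member at rest in the authors' FPKM, which has a pair of start sites. The sequences are those of RefSeq on GRCm38.p6, written 5′ to 3′ on the strand of the gene, and capitals mark matches to a searched motif. For Il4ra the GENCODE gene start, 125552120, lies inside the window of 125552021 to 125552270.
Il1rl1 start site 1 (chr1:40429320-40429569, plus strand): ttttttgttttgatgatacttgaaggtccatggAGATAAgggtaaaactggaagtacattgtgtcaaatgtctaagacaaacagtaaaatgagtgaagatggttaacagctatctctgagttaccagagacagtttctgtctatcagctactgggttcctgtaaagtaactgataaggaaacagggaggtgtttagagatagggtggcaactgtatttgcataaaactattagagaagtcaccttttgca
Il1rl1 start site 2 (chr1:40439379-40439628, plus strand): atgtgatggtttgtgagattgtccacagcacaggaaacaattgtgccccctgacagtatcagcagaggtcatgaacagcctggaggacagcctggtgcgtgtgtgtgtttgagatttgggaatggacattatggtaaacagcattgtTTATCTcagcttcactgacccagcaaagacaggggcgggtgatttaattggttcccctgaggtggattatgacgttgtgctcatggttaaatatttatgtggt
Il12rb2 (chr6:67376189-67376438, minus strand): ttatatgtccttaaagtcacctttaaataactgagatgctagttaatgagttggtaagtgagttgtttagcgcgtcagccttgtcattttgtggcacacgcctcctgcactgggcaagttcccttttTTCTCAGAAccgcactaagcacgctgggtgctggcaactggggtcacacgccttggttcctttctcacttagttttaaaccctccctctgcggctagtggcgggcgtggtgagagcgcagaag
Il4ra (chr7:125552021-125552270, plus strand): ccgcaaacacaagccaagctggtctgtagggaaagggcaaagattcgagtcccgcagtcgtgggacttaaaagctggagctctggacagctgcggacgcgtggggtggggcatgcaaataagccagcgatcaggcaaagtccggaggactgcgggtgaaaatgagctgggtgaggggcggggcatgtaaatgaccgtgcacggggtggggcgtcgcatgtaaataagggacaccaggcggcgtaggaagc
Il2rg (chrX:101268256-101268505, minus strand): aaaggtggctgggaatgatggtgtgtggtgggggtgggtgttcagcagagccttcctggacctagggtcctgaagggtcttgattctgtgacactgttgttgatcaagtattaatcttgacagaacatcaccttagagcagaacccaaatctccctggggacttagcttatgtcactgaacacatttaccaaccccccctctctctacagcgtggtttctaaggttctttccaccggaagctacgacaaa
RefSeq entries matched 7 of the 8 genes, with 8 start sites in all. Csf1r had no entry and was not searched. On either strand, the GATA motif AGATAA lay before both Il1rl1 start sites, at base -217 before site 1 and, on the opposite strand, at base -103 before site 2. It was found before 9.99% of 32851 mouse start sites. The STAT motif TTCNNNGAA, which reads the same on both strands, lay at base -123 before Il12rb2 and before 7.02% of all start sites. None of the 7 genes searched matched the spacing described for STAT6, TTC and GAA with 4 bases between (5.85% of all start sites). Nor did any match the NF-kB motif of GGGA and TTTCC with 1 base between (0.356%) or the AP-1 motif TGANTCA (6.75%). These matches describe letters in the window and were not tested as binding sites.

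The levels at rest show for which of the named cytokines the resting eosinophil libraries held receptor RNA. All 8 genes were detected, at 1 CPM or more in each resting library, but over a wide range. Per length, in the authors' FPKM, Il1rl1 was at 195.6, 199 and 208 and Csf1r at 182.5, 195 and 170.4 in resting libraries 1 to 3. The chains of the type I IL-4 receptor followed, with Il2rg at 34.9, 35.4 and 34.6 FPKM and Il4ra at 25.1, 24.5 and 22.6 FPKM. Thus the RNA of the IL-33 binding chain and of the IL-34 receptor was several times that of either IL-4 receptor chain. Il12rb2, the IL-12 receptor chain that IL-35 is said to use, was at 13.4, 11.9 and 11.9 FPKM.

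Il1rap, Il13ra1 and Il6st were the least abundant of the 8. Il1rap was at 4.89, 3.77 and 4.10 FPKM at rest. Il13ra1, the chain of the type II receptor, was at 1.43, 1.5 and 1.86 FPKM, and Il6st, or gp130, at 1.07, 1.35 and 1.23 FPKM. All 3 resting libraries gave the genes the same order, and no neighbours in it overlapped, although the highest Csf1r library (194.7 FPKM) was close to the lowest Il1rl1 library (195.6 FPKM) and the highest Il6st library (1.35 FPKM) to the lowest Il13ra1 library (1.43 FPKM). CPM per kb of the longest annotated transcript gave the same order. With the median transcript length Csf1r (408 CPM per kb) stood above Il1rl1 (251 CPM per kb), Il4ra above Il2rg and Il6st above Il13ra1, so the order within these pairs depends on the length used.

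Ranked by FPKM among the 11345 genes tested in that table, Il1rl1 was at position 356 and Csf1r at 390 in resting eosinophils. Il2rg was at 2244, Il4ra at 3147 and Il12rb2 at 5108. Il1rap, Il13ra1 and Il6st were at 7709, 9221 and 9575, in the lower part of the list.

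Because Csf1r is a macrophage gene and Il1rl1 a mast cell and basophil gene, the markers of those cells are given beside them. In resting eosinophils 14 monocyte and macrophage markers summed to 229 to 239 CPM, beside 558 to 589.8 CPM of Csf1r. Of this list the monocyte genes Ly6c2 (135 CPM) and Ccr2 (51.7 CPM) and the lysosomal gene Cd68 (17.1 CPM) were the most abundant there, while C1qa (0.508 CPM), Mertk (0.175 CPM) and Cd163 (0.129 CPM), genes of mature macrophages, were near 0 and Marco at 0. In T2 eosinophils the list summed to 144 to 153 CPM, with Csf1r at 859.5 to 900.3 CPM. Of its 11 tested genes 3 were higher in T2 eosinophils, as Csf1r was, and 5 lower. The higher ones were Fcgr1, an IgG receptor (18.4 ± 1.90 CPM in T2 and 2.32 ± 0.121 CPM in resting eosinophils; SD, n = 3 each), Mertk and Vcam1, and the lower ones Cx3cr1, F13a1, Ccr2, Ly6c2 and Cd68. The 10 mast cell and basophil markers summed to 45.5 to 48.8 CPM in T2 eosinophils, where Il1rl1 was at 1631 to 1807 CPM, and to 27.2 to 30.4 CPM in resting eosinophils, where Il1rl1 was at 657 to 685 CPM. Of 7 tested genes of that list 2 were higher in T2 eosinophils, as Il1rl1 was, and 4 lower. Gata2, a transcription factor of these cells, was at 37.6 ± 0.823 CPM in T2 and 19.3 ± 2.37 CPM in resting eosinophils, and the protease Cma1 at 6.08 ± 0.637 CPM in T2 and 1.58 ± 0.443 CPM in resting eosinophils (SD, n = 3 each). Fcer1a, Ms4a2, Mcpt8 and Prss34 were lower. Cpa3, a mast cell protease that was not called, was at 0.550 ± 0.105 CPM in T2 and 0.843 ± 0.269 CPM in resting eosinophils (SD, n = 3 each), and Ms4a2, the beta chain of the IgE receptor, at 0.475 ± 0.068 CPM in T2 and 1.51 ± 0.370 CPM in resting eosinophils. Of all 11345 genes tested in this comparison, 38.2% were called higher and 37.9% lower in T2 eosinophils. The part of both marker lists in the levels and differences of Csf1r and Il1rl1 was not tested.

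**Figure D1:**
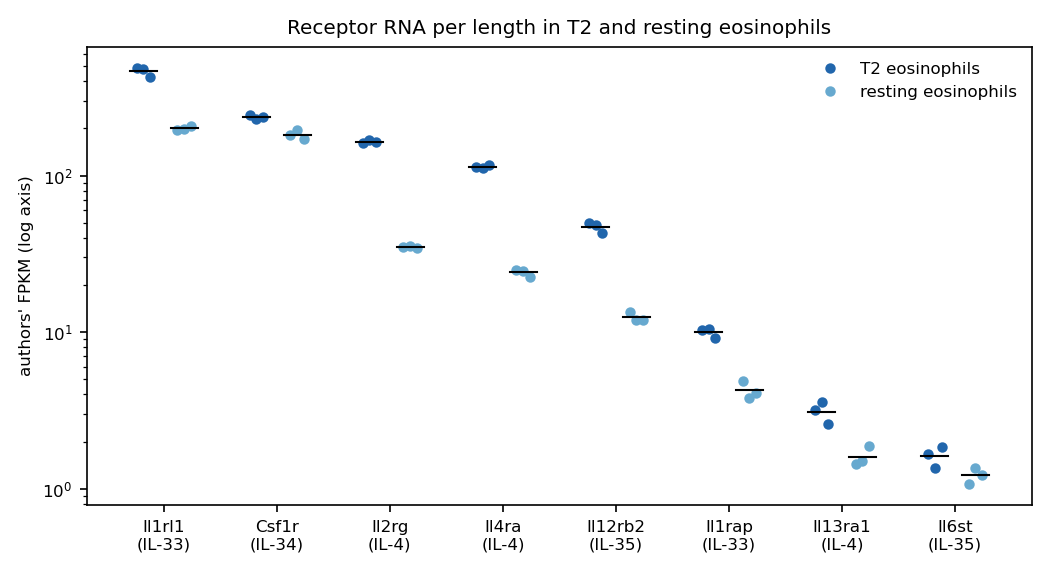
Authors' FPKM (log axis) of the 8 receptor genes in the 3 T2 and the 3 resting eosinophil libraries; points are libraries and lines are means. Il1rl1 and Csf1r, at 195.6 to 208 and 170.4 to 195 FPKM at rest, stand above the other genes, and the T2 points of each gene lie above its resting points.

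Setting T2 against resting eosinophils asks whether the RNA of the receptors for the cytokines named in the T2 titles differed. All 8 genes were higher in T2 eosinophils, the chains of the type I IL-4 receptor and Il12rb2 by the most, at 5.43 (Il2rg), 5.31 (Il4ra) and 4.35 (Il12rb2) times the resting level, and Csf1r and Il6st by the least, at about 1.5 times. In this comparison change was the rule: 76.1% of 11345 tested genes were called in either direction at an adjusted p under 0.05 in edgeR's quasi-likelihood test, with 38.2% called higher and 37.9% lower. The libraries of T2 and resting eosinophils did not overlap for any of the 8, as for 77.7% of all tested genes. The median log2 fold change of the 8 was 1.33, beside -0.01 over all tested genes. The 10 eosinophil markers summed to 6082 to 6210 CPM in T2 and 7495 to 7854 CPM in resting eosinophils, with 2 called higher and 7 lower. The 10 neutrophil markers summed to 775 to 811 CPM in T2 and 1959 to 2196 CPM in resting eosinophils, with 1 called higher and 6 lower. The part of these markers in the receptor differences was not tested.

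Il4ra was at 494, 502 and 497 CPM in T2 libraries 1 to 3, against 97.7, 95.4 and 87.9 CPM in resting libraries 1 to 3. Every T2 library was more than 5 times as high as any resting one, a log2 fold change of 2.41 (SE 0.05, edgeR adjusted p 3.37e-16). Il2rg, the signalling partner shared by the receptors for several interleukins, was at 278, 291 and 279.6 CPM in T2 libraries, against 51.9, 51.8 and 52.6 CPM in resting libraries. The resting libraries were nearly level with each other, and the log2 fold change was 2.44 (SE 0.05, edgeR adjusted p 2.71e-16). Since both rose by about the same factor, the FPKM of Il4ra over that of Il2rg was 0.696 ± 0.027 in T2 and 0.688 ± 0.034 in resting eosinophils (SD, n = 3 each).

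Il13ra1, the type II partner, rose less, from a low level. It was at 12.8, 14.5 and 10.2 CPM in T2 libraries, against 4.94, 5.16 and 6.42 CPM in resting libraries. T2 library 3 was the lowest of its group and still above each resting library (log2 fold change 1.18, SE 0.15, edgeR adjusted p 2.35e-06). The FPKM ratio of Il4ra to Il13ra1 was 37.5 ± 7.19 in T2 and 15.3 ± 2.82 in resting eosinophils (SD, n = 3 each).

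For IL-33, both chains rose by like factors. Il1rl1 was at 1749, 1807 and 1631 CPM in T2 libraries, against 657, 663 and 685 CPM in resting libraries, and the groups lay far apart (log2 fold change 1.37, SE 0.04, edgeR adjusted p 1.01e-13). Il1rap, the accessory chain of the IL-1 family receptors, was at 42.5, 42.4 and 37.5 CPM in T2 libraries, against 19.5, 14.6 and 15.7 CPM in resting libraries. Resting library 1 was the highest of its group but below every T2 library (log2 fold change 1.3, SE 0.09, edgeR adjusted p 3.38e-09). The FPKM of Il1rl1 was 46.7 ± 0.611 times that of Il1rap in T2 and 47.9 ± 6.93 times in resting eosinophils (SD, n = 3 each), so the binding chain had far more RNA than its partner in both.

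Csf1r was at 865, 859.5 and 900.3 CPM in T2 libraries, against 589.8, 574 and 558 CPM in resting libraries. The smallest gap between the groups was thus wider than the spread within either (log2 fold change 0.61, SE 0.04, edgeR adjusted p 9.52e-10).

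The IL-35 chains differed from each other in size of change. Il12rb2 was at 153, 151 and 129 CPM in T2 libraries, against 36.0, 31.4 and 32.0 CPM in resting libraries, with T2 library 3 the lowest of the treated ones (log2 fold change 2.12, SE 0.07, edgeR adjusted p 2.96e-13). Il6st was at 11.2, 9.55 and 11.4 CPM in T2 libraries, against 6.68, 7.81 and 6.82 CPM in resting libraries. The groups did not overlap, but both were low (log2 fold change 0.59, SE 0.12, edgeR adjusted p 0.000345). The FPKM of Il12rb2 was 29.6 ± 6.29 times that of Il6st in T2 and 10.4 ± 1.94 times in resting eosinophils (SD, n = 3 each).

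The T2 libraries carry different interleukins in their titles, with 1 library each and hence no replicate check of such a difference. Il1rl1 was 1.39, 1.44 and 1.29 above its resting mean on the log2 scale in libraries 1, 2 and 3, and the library titled with IL-33 was between the others. Csf1r was 0.59, 0.58 and 0.65 above it, the lowest in library 2, titled with IL-34. In library 3, titled with IL-35, Il12rb2 was the lowest (1.96, with 2.2 and 2.19 in libraries 1 and 2) and Il6st the highest (0.68, with 0.66 and 0.43). Over the 3 T2 libraries the log2 range of the members was 0.02 for Il4ra to 0.51 for Il13ra1, where the median tested gene had a range of 0.19 in T2 and 0.16 in resting libraries.

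The genes that work with these receptors moved in both directions. Of 10 tested genes of IL-4 and IL-13 signalling 7 were higher and 2 lower in T2 eosinophils. Socs1, a feedback inhibitor of JAK kinases, rose by 3.71 on the log2 scale and was at 208 ± 15 CPM in T2 and 15.9 ± 0.823 CPM in resting eosinophils, and the phosphatases Ptpn11 and Ptpn6 rose by 1.40 and 1.36. The lower ones were Stat6, the transcription factor of IL-4 receptors, at -0.80, and the kinase Jak1, at -0.63. Il13ra2, the decoy receptor for IL-13, was not tested and had a mean of 0 CPM in T2 and 0.0193 CPM in resting eosinophils. Among the other partners of the common gamma chain 3 of 5 were higher and 0 lower, with Il2ra at 1.74, Il7r at 1.05 and Il2rb at 0.77 (log2 fold changes).

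Of 15 genes of IL-33 signalling 10 were higher and 3 lower. Irak3, a kinase-dead inhibitor of the Myd88 pathway, rose by 3.12 on the log2 scale and Irak2 by 1.03, while Sigirr, an inhibitory receptor of the IL-1 family, fell by 2.22, at 0.964 ± 0.313 CPM in T2 and 4.52 ± 0.864 CPM in resting eosinophils (SD, n = 3 each). Of 5 other receptor chains of the IL-1 family 2 were higher, the decoy receptor Il1r2 (1.76) and Il18rap (1.25), the accessory chain of the IL-18 receptor, and 2 lower, Il1rl2 (-1.14), a chain of the IL-36 receptor, and Il18r1 (-0.74), the partner of Il18rap. Il18rap was at 276 ± 15 CPM in T2 and 116 ± 1.59 CPM in resting eosinophils (SD, n = 3 each).

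Of 9 tested genes around Csf1r 4 were higher and 2 lower. Among those called without overlap, Pik3cd, a PI3-kinase catalytic subunit, differed most, at 1.02. The adaptor Gab2, at -0.45, and the ubiquitin ligase Cbl, at 0.36, followed. Of 9 tested genes of the IL-12 and gp130 families 4 were higher and 4 lower. Socs3, a feedback inhibitor of gp130 signalling, rose by 3.06, to 202 ± 11.2 CPM in T2, against 24.2 ± 0.606 CPM in resting eosinophils, and Il27ra, the IL-27 binding chain, by 2.03. Lifr, which pairs with gp130 to bind LIF, rose by 1.77, to 181 ± 3.86 CPM in T2, against 53.0 ± 2.96 CPM in resting eosinophils. Il12rb1, the partner of Il12rb2 in the IL-12 receptor, was at 0.80 CPM in T2 and 0.79 CPM in resting eosinophils and was not called.

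All 6 tested ligand genes were higher in T2 eosinophils. Il6, whose receptor also uses gp130, was at 445 ± 57.8 CPM in T2 and 1.29 ± 0.250 CPM in resting eosinophils (log2 fold change 8.43, edgeR adjusted p 3.37e-17). Il13, the other ligand of the type II receptor, was at 309 ± 20.1 CPM in T2 and 1.51 ± 0.382 CPM in resting eosinophils, and Il4 at 86.8 ± 4.67 CPM in T2 and 35.3 ± 4.66 CPM in resting eosinophils (SD, n = 3 each). Csf1, the other ligand of Csf1r, was at 672 ± 37.9 CPM in T2 and 592 ± 12.1 CPM in resting eosinophils (log2 fold change 0.18, edgeR adjusted p 0.00182). Ebi3, a chain of IL-35 and IL-27, was at 186 ± 6.77 CPM in T2 and 39.3 ± 3.13 CPM in resting eosinophils, and Il27, its partner in IL-27, at 13.8 ± 2.41 CPM in T2 and 5.96 ± 1.35 CPM in resting eosinophils. Il12a, the other chain of IL-35, was not tested, at 0.32 CPM in T2 and 0.02 CPM in resting eosinophils. Il33 (0.06 CPM in T2 and 0.10 CPM in resting eosinophils) and Il34 (0.20 CPM in both groups) were at or near the 3-count floor, Csf2, the gene of GM-CSF, was at 0.611 CPM in T2 and 0 CPM in resting eosinophils, and Il12b at 0 CPM in T2 and 0.0187 CPM in resting eosinophils; none of these was tested.

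Bone marrow eosinophils were set against GMPs to see which receptor genes differ between eosinophils of the marrow and progenitors. Il1rl1 and Il2rg were higher in bone marrow eosinophils, and Csf1r and Il6st lower. These 4 called genes of 8 stand beside 19.8% of 12214 tested genes called (13% higher and 6.78% lower), and the groups did not overlap for 5 of the 8 and for 48.3% of all tested genes. The median log2 fold change of the 8 was -0.04, beside 0.01 over all tested genes.

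Il1rl1 was at 53.7, 53.3 and 95.4 CPM in bone marrow eosinophil libraries 1 to 3, against 2.31, 5.22 and 9.43 CPM in GMP libraries 1 to 3. All bone marrow eosinophil libraries were above all GMP libraries, with library 3 the highest (log2 fold change 3.58, SE 0.56, edgeR adjusted p 0.00675). Its partner Il1rap was at 18.7, 30.6 and 47.7 CPM in bone marrow eosinophils, against 36.5, 37.9 and 28.8 CPM in GMPs, and the groups overlapped (log2 fold change -0.09, edgeR adjusted p 0.871, and 0.14 without bone marrow eosinophil library 1). The 6 tested mast cell and basophil markers were also all higher in bone marrow eosinophils, with the list summing to 1389 to 2618 CPM, against 139.7 to 375 CPM in GMPs, and Cpa3 was at 659.7 ± 381 CPM in bone marrow eosinophils and 58.7 ± 19.8 CPM in GMPs (SD, n = 3 each). Their part in the Il1rl1 difference was not tested.

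Among the IL-4 receptor chains, Il4ra was at 83.8, 88.9 and 46.5 CPM in bone marrow eosinophils, against 81.1, 68.8 and 86.1 CPM in GMPs, and the groups overlapped (log2 fold change -0.11, edgeR adjusted p 0.799, and 0.13 without bone marrow eosinophil library 3). Il2rg was at 116, 107 and 55.6 CPM in bone marrow eosinophils, against 43.8, 38.6 and 50.6 CPM in GMPs, with library 3 close to the GMP range (log2 fold change 1.07, SE 0.30, edgeR adjusted p 0.0473). This call was kept in 2 of 12 alternatives, and without each library in turn its adjusted p was between 0.000576, without bone marrow eosinophil library 3, and 0.179. Il13ra1 was at 8.90, 7.37 and 41.8 CPM in bone marrow eosinophils, against 0.872, 0.0320 and 2.36 CPM in GMPs, where the lowest value was 1 count. The groups did not overlap, but bone marrow eosinophil library 3 was far above libraries 1 and 2, and the log2 fold change of 4.14 (SE 1.32) was not called (edgeR adjusted p 0.0687). Without that library it was 2.89 and called (edgeR adjusted p 0.0473), and DESeq2 called it with all libraries (4.12, adjusted p 0.00198).

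Csf1r was at 232, 158 and 145 CPM in bone marrow eosinophils, against 566, 559 and 587 CPM in GMPs. The GMP libraries were close together and the highest bone marrow eosinophil library was far below the lowest of them (log2 fold change -1.68, SE 0.22, edgeR adjusted p 0.00337). Of 13 tested monocyte and macrophage markers 3 were lower in bone marrow eosinophils, as Csf1r was, and 9 higher. The lower ones were F13a1, at 88.3 ± 43.1 CPM in bone marrow eosinophils and 2174 ± 101 CPM in GMPs, Ccr2, at 37.1 ± 24.8 CPM in bone marrow eosinophils and 235 ± 23.4 CPM in GMPs, and Cx3cr1, at 11.8 ± 5.78 CPM in bone marrow eosinophils and 54.6 ± 8.88 CPM in GMPs (SD, n = 3 each). Among the higher ones, C1qa was at 274 ± 76.8 CPM in bone marrow eosinophils and 0.440 ± 0.151 CPM in GMPs. The list summed to 3416 to 4963 CPM in bone marrow eosinophils and 3683 to 4479 CPM in GMPs, and its part in the Csf1r difference was not tested.

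Il6st gave the largest difference of the 8. It was at 2.29, 5.57 and 0.168 CPM in bone marrow eosinophils, the last from 3 counts, against 164, 190.3 and 164 CPM in GMPs. The groups lay more than an order of magnitude apart (log2 fold change -5.98, SE 0.93, edgeR adjusted p 0.00686), and the log2 fold change was -7.05 to -5.47 and called without any 1 library. Il12rb2 was at 12.5, 8.83 and 13.1 CPM in bone marrow eosinophils, against 10.5, 15.5 and 8.25 CPM in GMPs, with overlap (log2 fold change 0.01, edgeR adjusted p 0.988), and the sign of this small difference turned with the scaling. In FPKM, Csf1r led in GMPs (181 ± 3.40) and Il6st followed (38.4 ± 4.70), overlapping with Il2rg (35.7 ± 3.83). In bone marrow eosinophils Il2rg (57.8 ± 28.6) and Csf1r (43.4 ± 18.7) led and overlapped, as did Il4ra (13.4 ± 6.02) and Il1rl1 (12.4 ± 2.49), and Il6st was the lowest (0.477 ± 0.476; SD, n = 3 each).

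Of the genes that pair with these receptors, 10 tested genes of the IL-12 and gp130 families held 3 that were higher in bone marrow eosinophils and 1 that was lower, Il6ra, which fell by 2.49 on the log2 scale beside Il6st. The higher ones included Il27ra (1.44). Of 4 tested IL-1 family receptors Il1r2, a decoy receptor for IL-1, rose by 6.50 and Il18rap by 2.50, and Il1r1, the signalling receptor for IL-1, fell by 5.55. Of 10 tested genes of IL-4 and IL-13 signalling 2 were higher, Ptpn6 (0.69) and Jak1 (0.67), and 0 lower. Of 15 of IL-33 signalling Irak3 (1.34) and Myd88 (0.69) were higher and Ikbkb (-0.52) lower, and of 10 around Csf1r 2 were higher, the adaptors Tyrobp (2.38) and Grb2 (0.97). Il2rb was the 1 called of 3 tested partners of the common gamma chain, at 6.45 CPM in bone marrow eosinophils and 0.160 CPM in GMPs. Of 6 tested ligands Csf1 (2.10), Ebi3 (1.5) and Il4 were higher. Il4 was at 3.27 to 28.9 CPM in bone marrow eosinophils and 0 to 0.0639 CPM in GMPs, 2 counts at most. Il12a (11.2 CPM in bone marrow eosinophils and 23.4 CPM in GMPs), Il27 (2.04 CPM in bone marrow eosinophils and 0.332 CPM in GMPs) and Il6 (6.11 CPM in bone marrow eosinophils and 0.128 CPM in GMPs) were not called. All 10 neutrophil markers and all 8 tested B cell markers were also higher in bone marrow eosinophils. Of 6 tested T, NK and innate lymphoid cell markers 4 were higher and 0 lower, where 13% of all tested genes were called higher. The part of these markers in the differences of the related genes was not tested.

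**Figure D2:**
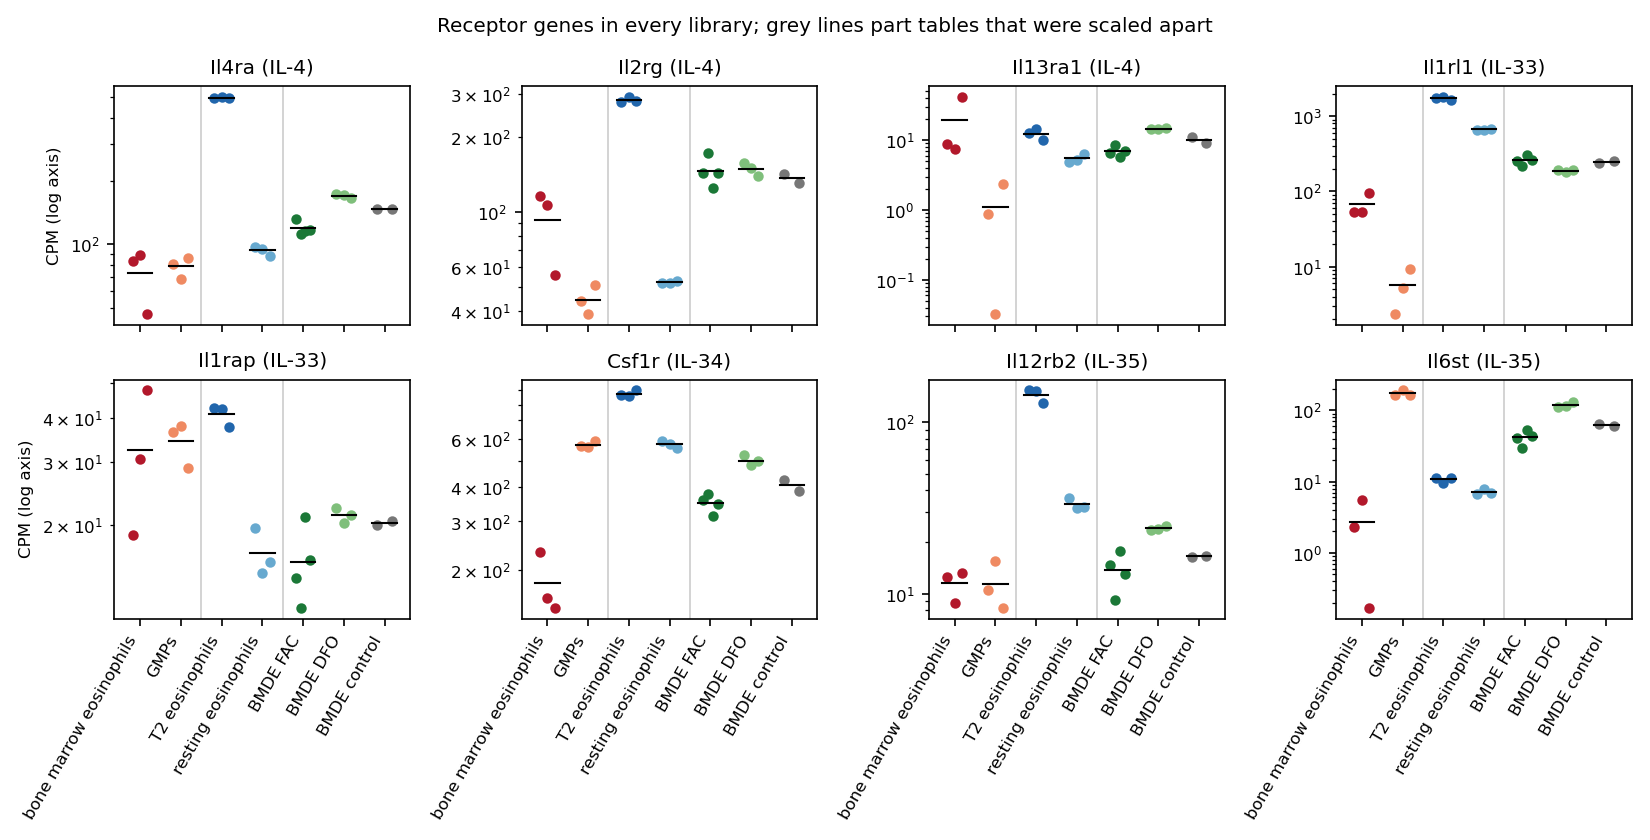
CPM (log axis) of each receptor gene in all 21 libraries; points are libraries, black lines are group means and grey lines part the 3 tables, which were scaled apart. Il1rl1 spans 2.31 CPM in a GMP library to 1807 CPM in a T2 library, and Il6st 0.168 CPM in a bone marrow eosinophil library to 190.3 CPM in a GMP library.

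The BMDE comparisons ask whether receptor RNA differed with iron supply. With FAC and DFO set against each other, 6 of 8 genes were called, Il1rl1 higher with FAC and Il4ra, Il13ra1, Csf1r, Il12rb2 and Il6st lower. Of 12607 tested genes 48.2% were called in this comparison (23.5% higher and 24.8% lower), and the groups did not overlap for the same 6 members and for 55.7% of tested genes. The median log2 fold change of the 8 was -0.51, beside -0.01 over all tested genes. Against the 2 control libraries, which both comparisons share, DFO gave 1 call of 8, Il6st higher (11.6% of tested genes called, 6.46% higher and 5.12% lower), and FAC 1 call of 8, Il4ra lower (6.04% of tested genes called, 1.76% higher and 4.28% lower). Groups did not overlap for 6 members with DFO and 4 with FAC, where 65.7% of tested genes did not overlap with DFO and 36.1% with FAC.

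Il6st was at 41.3, 29.3, 52.7 and 43.7 CPM in FAC libraries 5 to 8 and at 110.2, 115 and 129.7 CPM in DFO libraries 9, 11 and 12, against 63.9 and 61.0 CPM in control libraries 1 and 2. The 3 groups were apart, with DFO highest and FAC lowest, and FAC library 6 the lowest of all. FAC against DFO gave a log2 fold change of -1.5 (SE 0.16, edgeR adjusted p 8.56e-05), DFO against control 0.92 (SE 0.20, edgeR adjusted p 0.0181), and FAC against control -0.58 (SE 0.18), which was not called (edgeR adjusted p 0.0987). The DFO call was lost without either control library or without DFO library 11 or 12 (edgeR adjusted p up to 0.157).

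Il12rb2 was at 14.6, 9.13, 17.8 and 13 CPM with FAC and 23.4, 23.9 and 24.7 CPM with DFO, against 16.2 and 16.7 CPM in controls. FAC libraries overlapped with controls, and DFO libraries were above both (FAC against DFO, log2 fold change -0.82, SE 0.18, edgeR adjusted p 0.00473). In FPKM, Il12rb2 was below Il6st in BMDEs, at 0.492 ± 0.096 times its level with FAC (SD, n = 4), 0.319 ± 0.023 times with DFO (SD, n = 3) and 0.462 ± 0.031 times in controls (SD, n = 2). This is the reverse of the resting eosinophils of the other table, where the ratio was 10.4.

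Il13ra1 was at 6.63, 8.52, 5.69 and 7.02 CPM with FAC and 14.7, 14.3 and 14.8 CPM with DFO, against 11.3 and 9.11 CPM in controls. The 3 groups did not overlap, and FAC against DFO gave a log2 fold change of -1.07 (SE 0.13, edgeR adjusted p 0.000206). Il4ra was at 132, 113, 116 and 117 CPM with FAC and 173, 171 and 167 CPM with DFO, against 148 and 147 CPM in controls. It too was ordered with DFO above control and FAC below, without overlap. FAC against DFO gave -0.51 (SE 0.07, edgeR adjusted p 0.000291) and FAC against control -0.30 (SE 0.08, edgeR adjusted p 0.0495), a call that was kept in 5 of 12 alternatives (edgeR or DESeq2 adjusted p 0.00436 to 0.317). Il2rg, by contrast, was at 143, 173, 125 and 144 CPM with FAC and 157, 151 and 139.6 CPM with DFO, against 142 and 131 CPM in controls, and all 3 groups overlapped (FAC against DFO, -0.03, SE 0.10, edgeR adjusted p 0.835).

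Csf1r was at 359.9, 378, 315 and 348 CPM with FAC and 522, 479.9 and 498 CPM with DFO, against 425 and 386 CPM in controls. The groups did not overlap, with FAC lowest and DFO highest (FAC against DFO, log2 fold change -0.51, SE 0.08, edgeR adjusted p 0.00063). Il1rl1 went the other way. It was at 256, 217, 301 and 261 CPM with FAC and 190.5, 180.4 and 193 CPM with DFO, against 239 and 251 CPM in controls, so that DFO libraries were lowest and FAC libraries overlapped with controls (FAC against DFO, 0.46, SE 0.10, edgeR adjusted p 0.00508). Il1rap, at 14.2, 11.7, 21.1 and 15.9 CPM with FAC and 22.3, 20.2 and 21.2 CPM with DFO, against 20.0 and 20.5 CPM in controls, was not called in FAC against DFO (-0.44, SE 0.17, edgeR adjusted p 0.0536). The FPKM ratio of Il1rl1 to Il1rap was 13.2 ± 1.14 with FAC (SD, n = 4), 7.47 ± 0.353 with DFO (SD, n = 3) and 10.1 ± 0.0018 in controls (SD, n = 2).

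The number of calls changed with FAC library 6, which stood apart from its group. Without it, FAC against DFO gave 7 calls of 8, Il1rap among them, FAC against control gave 4 and DFO against control 6. In a fit of DFO and control libraries alone DFO gave 7 calls, and in one of FAC and control libraries alone FAC gave 0 in edgeR, with 3 at an unadjusted p under 0.05. DESeq2, on all 3 BMDE groups, called 4 with DFO and 3 with FAC against control.

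Markers of other cells moved with the treatments in the same libraries. The 10 dendritic cell markers summed to 461 to 779 CPM with FAC and 1471 to 1548 CPM with DFO, against 807 to 859.98 CPM in controls, and all 10 were lower in FAC than in DFO libraries. The 10 eosinophil markers summed to 57859 to 70002 CPM with FAC and 18627 to 22014 CPM with DFO, against 42536 to 43485 CPM in controls, and all 10 were higher in FAC than in DFO libraries. The 10 neutrophil markers summed to 6356 to 9268 CPM with FAC and 16493 to 18512 CPM with DFO, against 9033 to 10751 CPM in controls. Of these 10, 9 were lower and 1 higher in FAC than in DFO libraries, and against control 7 were higher and 1 lower with DFO. The mast cell and basophil list, at 3941 to 4957 CPM with FAC and 4888 to 5660 CPM with DFO, against 3803 to 4490 CPM in controls, was far more abundant than at rest in the table of T2 and resting eosinophils. Of its 8 tested genes 4 were higher in FAC than in DFO libraries, as Il1rl1 was, namely Cma1 (log2 fold change 1.34), Gata2 (0.62), Tpsb2 (0.58) and Cpa3 (0.42), and 3 were lower, namely Prss34 (-0.83), Fcer1a (-0.63) and Ms4a2 (-0.46). The monocyte and macrophage list summed to 2435 to 3714 CPM with FAC and 1848 to 1940 CPM with DFO, against 2060 to 2186 CPM in controls. Of its 12 tested genes 4 were lower in FAC than in DFO libraries, as Csf1r was, namely Cx3cr1 (-2.45), Ccr2 (-1.34), F13a1 (-0.83) and Mertk (-0.56), and 2 were higher, namely Vcam1 (2.27) and Ly6c2 (1.61). Of the 4 FAC libraries, library 6 had the highest dendritic cell, eosinophil, mast cell and basophil, and monocyte and macrophage sums, the highest Il2rg, Il13ra1 and Csf1r, and the lowest Il6st, Il12rb2, Il1rap, Il1rl1 and Il4ra. The part of these markers in the receptor differences was not tested.

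**Figure D3:**
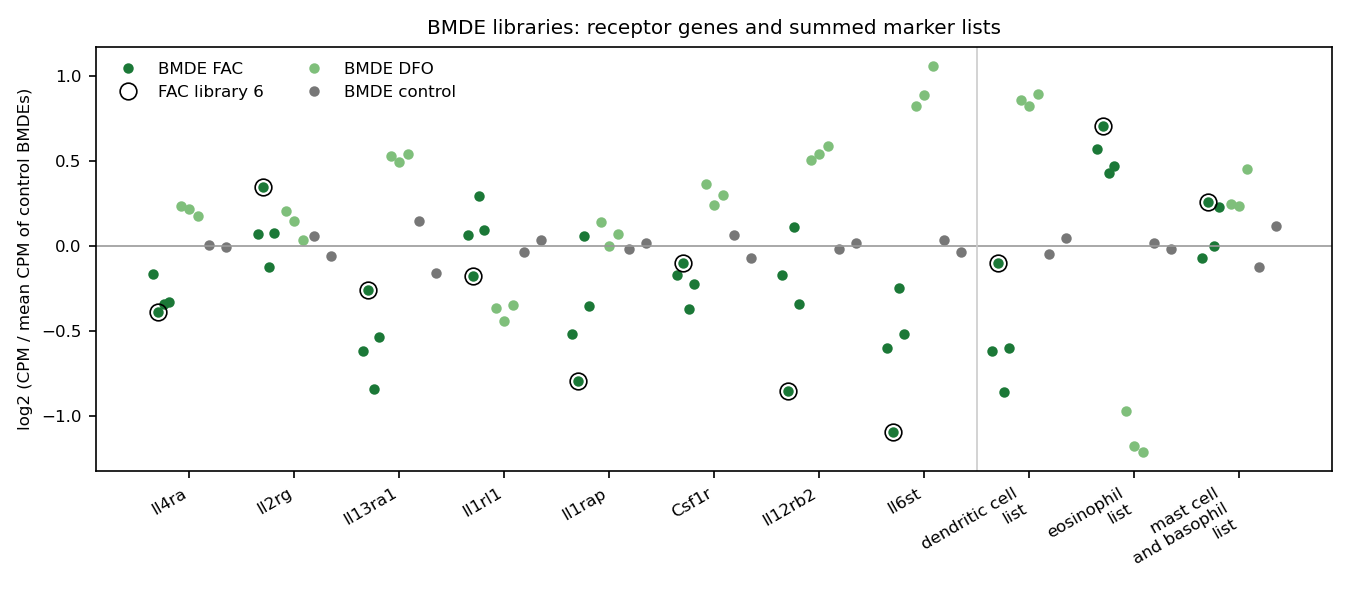
Each BMDE library's CPM over the mean of the 2 control libraries (log2), for the 8 receptor genes and, right of the grey line, the summed CPM of 3 marker lists. Il6st and the dendritic cell list lie lowest with FAC and highest with DFO, and the eosinophil list runs the other way. FAC library 6, ringed, has the lowest Il6st but the highest dendritic cell sum of the FAC libraries.

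Related genes moved with the DFO and FAC contrast as well. In FAC against DFO, 5 of 6 tested partners of the common gamma chain were lower and 0 higher, with Il21r at -1.09, Il15ra at -0.94 and Il7r at -0.86 (log2 fold changes), although Il2rg itself was not called. Of 9 tested genes of the IL-12 and gp130 families 6 were lower and 1 higher. Lifr fell by 1.80 on the log2 scale, at 11.2 ± 1.09 CPM with FAC (SD, n = 4) and 38.8 ± 3.13 CPM with DFO (SD, n = 3), and Il6ra, the IL-6 binding chain, fell by 1.61. Of 10 genes of IL-4 and IL-13 signalling 6 were lower and 1 higher, namely Socs1 at 1.53, with Irs2 (-0.66) and Ptpn11 (-0.56) the largest of the lower ones. Of 15 of IL-33 signalling Irak2 (-0.73) and Ikbkg (-0.35) were lower and Tab1 (0.3) higher. Of 5 IL-1 family receptors Il1r1 (-0.79) was lower and Il1r2 (0.72) higher, and of 10 genes around Csf1r 4 were lower and 2 higher, led by Cbl (-0.85), Sdc1 (-0.42) and Syk (-0.40). Among ligands Il13 was higher with FAC by 2.34, at 4.23 ± 0.645 CPM (SD, n = 4) against 0.830 ± 0.268 CPM with DFO (SD, n = 3), Il4 by 1.58 and Il6 by 1.05, and Il12a (-1.18) and Il12b (-0.93) were lower. Csf1 (0.10), Ebi3 (0.16) and Il27 (-0.64) were not called.

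Against control fewer of these genes were called. With DFO, the gamma chain partners Il15ra (0.75), Il7r (0.64) and Il21r (0.64) were higher, as were Lifr (0.77), Stat4 (0.43), Sdc1 (0.87) and Ptpn6 (0.36), and Socs1 (-0.90) and Il13 (-1.11) were lower. With FAC, Lifr (-1.03), Il2ra (-0.56), Il21r (-0.45) and Irak2 (-0.41) were lower, and Il13 (1.22) and Il6 (0.77) higher.

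**Figure D4:**
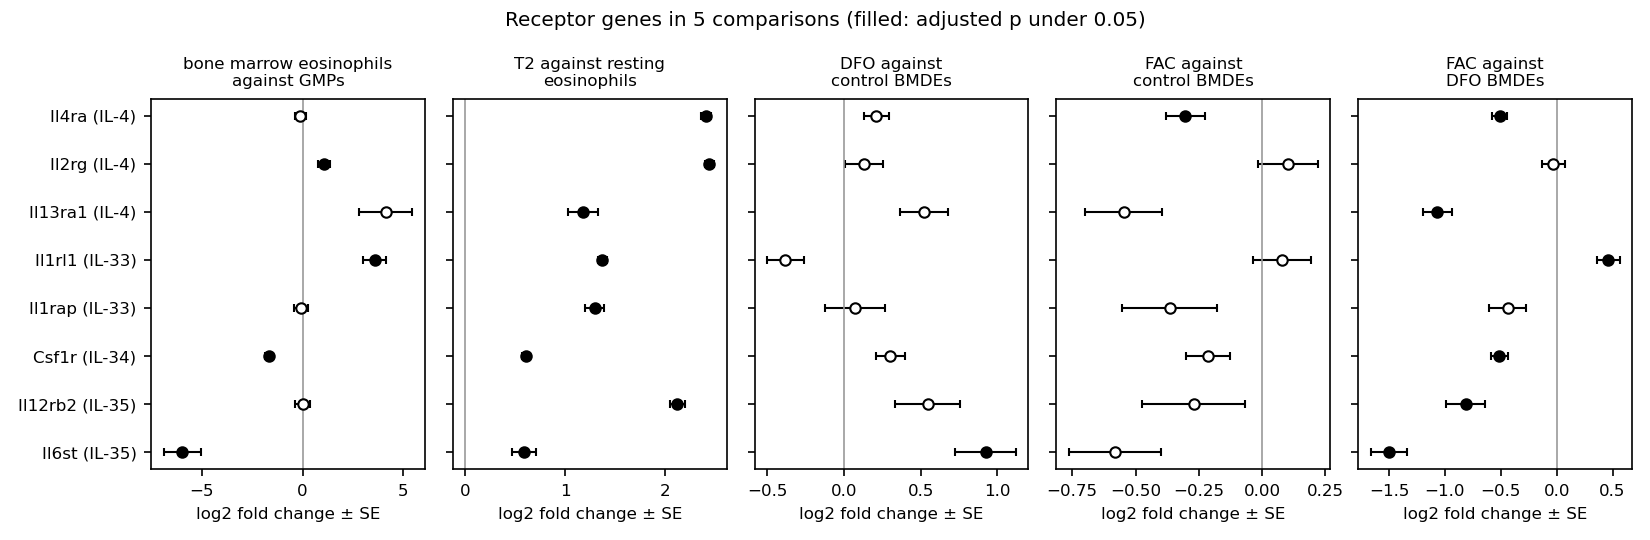
Log2 fold change ± SE of each receptor gene in 5 comparisons, each on its own scale, with filled points at an adjusted p under 0.05. In T2 against resting eosinophils all 8 points are filled and above 0, from 0.59 to 2.44, and in the other comparisons 4, 1, 1 and 6 are filled.

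Over all 21 libraries the genes whose log2 CPM ran most alike to each member were counted among 10266 genes tested in all 3 tables. Pearson's r describes here mainly the differences between the 7 groups, whose libraries share tables and treatments, and no test was made. Il4ra ran most like Ikbke (r = 0.974) and Tnip1 (0.972), and Il2rg most like Ets2 (0.974) and Nfkbie (0.972). Il1rl1 ran most like Lilr4b (0.971) and Abtb2 (0.970), Csf1r like Tubb6 (0.964) and Galnt11 (0.940), and Il12rb2 like Nfat5 (0.959) and Cflar (0.958). Il6st was closest to Clcn3 (0.982) and Coa5 (0.977), Il13ra1 to St6gal1 (0.952) and Klra2 (0.922), and Il1rap to Kif5b (0.919) and Sppl2a (0.915).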

How the data were processed

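Per the labels' protocols, messenger RNA was enriched on oligo(dT) beads and sequenced. Names in the submitters' processing notes, with no role given, are mm10, RSEM, StringTie 1.3.1, HISAT2, Bowtie2 2.2.8 and fastp 0.18.0. The authors deposited expected counts and FPKM per gene in 2 tables and whole-number counts and FPKM in the table of T2 and resting eosinophils. The expected counts were rounded. In the last table Il4ra is listed as Il4r and was matched by its Ensembl number, and a further row under the symbol Il2rg, predicted gene Gm20489, was not used. The 3 tables were fitted apart, all genes at once, with edgeR 4.0.16 (R 4.3.3: filterByExpr, TMM factors, quasi-likelihood F test, Benjamini-Hochberg adjustment, called under 0.05), the 3 BMDE groups in 1 fit. Steps were tested on simulated data that had the same spread in every library, which does not check libraries that stand apart. CPM uses TMM factors. A member was detected at 1 CPM or more in every library. DESeq2 1.42.0 was an alternative. Named genes are all members, the ligands, up to 3 genes of each pathway list with the largest fold changes among those called without overlap in a comparison, and the 2 most alike genes by r of log2 CPM with a prior count of 2; Stat6, Jak1, Il18r1, Il12rb1, Il13ra2 and single cell type markers were named after their values were seen. A gene that the rule picks is not reported here. The members and lists were chosen with earlier results of these data known. Nothing says that libraries of a group came from separate animals or cultures, so p-values measure only the spread between these libraries. No 2 libraries agreed within sampling noise. The 3-count floor covers counting error only, whereas SEs and SDs include the spread between these libraries.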

Additional observations from a re-analysis of the deposited data

How the results depend on the processing

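In T2 against resting eosinophils, each of the 8 fold changes kept its direction and its call in all 12 alternatives. The median log2 fold change of all genes, within 0.02 of 0 with TMM factors, was -0.41 (bone marrow eosinophils against GMPs), -0.23 (T2), -0.10 (FAC against control) and -0.14 (FAC against DFO) with library totals alone, and -0.13 (T2) with upper-quartile factors. In bone marrow eosinophils against GMPs, 2413 genes were called, 4055 with DESeq2, 747 to 4623 without 1 library. Nothing says that equal library numbers mark a shared source, and same-numbered libraries did not deviate together (correlations -0.0216 to 0.119); with the replicate block 1419 genes and 4 members were called there, Il13ra1 (4.59, edgeR adjusted p 0.0291) in place of Il2rg (edgeR adjusted p 0.103), and 8498 genes and 8 members in T2 against resting eosinophils. Il12rb2, never called, turned to -0.0081 with DESeq2 size factors, -0.075 with upper-quartile factors, -0.43 with library totals, -0.012 with DESeq2, -0.0080 without a filter and -0.19 to 0.28 without 1 library; Il4ra ran from -0.27 to 0.13 and Il1rap from -0.49 to 0.14 without 1 library, and they were at -0.47 and -0.60 with library totals. In DFO against control, genes called were 1460, 5982 with these groups alone, 4899 with FAC library 6 left out and 217 to 699 without 1 library; members called were 1, 2 with upper-quartile factors, 3 with library totals, 4 with DESeq2, 7 with these groups alone, 6 with FAC library 6 left out and 0 to 1 without 1 library. In FAC against control, genes called were 761, 1300 with DESeq2, 116 with these groups alone and 76 to 2728 without 1 library; members called were 1, 0 with DESeq2 size factors, without a filter and with these groups alone, 3 with library totals and with DESeq2, and 0 to 4 without 1 library. Il1rl1 turned to -0.0042 there with library totals. In FAC against DFO, Il2rg, never called, ran from -0.10 to 0.065 without 1 library, and the other 7 kept their direction. No paired fit was possible for BMDEs, whose groups share no replicate number. Library totals alone and the fit without FAC library 6 were added after the data had been seen; the causes of these changes were not tested. Il13ra1 and Il6st, at 88 to 153 counts in a resting library, had the fewest counts of the 8 there. The log2 range over the resting libraries was 0.42 for Il1rap, 0.38 for Il13ra1 and 0.23 for Il6st.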

Other observations

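The titles of the T2 libraries also name GM-CSF, and BMDEs were grown with IL-5. The shared beta chain Csf2rb was at 3575 ± 101 CPM in T2 and 3204 ± 111 CPM in resting eosinophils (SD, n = 3 each). The GM-CSF binding chain Csf2ra was at 391 ± 4.00 CPM in T2 and 245 ± 6.17 CPM in resting eosinophils, and the IL-5 binding chain Il5ra at 123 ± 3.76 CPM in T2 and 326 ± 20.1 CPM in resting eosinophils. Csf2rb (log2 fold change 0.16, edgeR adjusted p 0.00166) and Csf2ra (0.68, edgeR adjusted p 3.33e-10) were higher in T2 eosinophils, and Il5ra was lower (-1.41, edgeR adjusted p 5.86e-13). Csf2rb2, a near-identical mouse copy of Csf2rb, was at 2003 ± 56.9 CPM in T2 and 1801 ± 89.0 CPM in resting eosinophils, and reads may not always be assigned to 1 of the pair.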
